A study of Mus musculus with 12 samples.

Results

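Chaperones hold, fold and refold other proteins. The genes described here are the cytosolic and mitochondrial chaperone families of the mouse, chosen by name: every probe whose gene symbol in the platform annotation begins with Hspa, Hspb, Hsph, Hspd, Hspe, Hsp90 or Dnaj, or with Cct and a digit, with Hspa5 left out. That rule found 146 probes for 76 genes, of 45135 probes and 19031 named genes on the array. It reads letters and not biology, so the set also holds 10 genes whose products work in or at the endoplasmic reticulum (Hsp90b1, Hspa13, Dnajb9, Dnajb12, Dnajb14, Dnajc1, Dnajc3, Dnajc10, Dnajc14 and Dnajc18) and 2 partners that share the Hspb letters without being small heat shock proteins (Hspbp1 and Hspbap1). Another 8 genes were assigned to mitochondria. The remaining 58 were placed in the cytosol or nucleus or given no compartment, so these counts may miss members. The chaperonin subunit Tcp1 falls outside the rule, and Hsp90ab1 was not analysed here.

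RNA came from the hippocampus of 6 TIF-IA CaMKCreERT2 mutants and 5 controls, C57Bl/6N mice of both sexes, 4 weeks after tamoxifen. The mutants carried TIF-IA flox/flox and a tamoxifen-activated Cre recombinase driven by the Camk2a promoter, which removes TIF-IA, a factor that RNA polymerase I needs to transcribe ribosomal RNA, from excitatory neurons of the forebrain. The methods describe the controls as TIF-IA flox/flox without Cre, whereas the labels call them wildtype, and both genotypes received tamoxifen at 2 months of age. Each animal was hybridised to 1 Illumina bead array apart from mutant 6, whose 2 arrays were averaged. The animal numbers fall into the 200s (3 mutants and 4 controls) and the 300s (3 mutants and 1 control), and what these series mean is not stated. The tissue holds glia, vessels and interneurons that keep TIF-IA, so that in these bulk samples fewer cells of a type and less RNA per cell cannot be told apart.

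Chaperones work as a network. HSP70 proteins (Hspa and Hsph genes) bind stretches of unfolded protein and release them with each turn of ATP. J-domain proteins (Dnaj genes) choose what HSP70 binds and start its ATPase, HSP90 finishes the folding of kinases and receptors, the small heat shock proteins (Hspb) hold unfolding proteins without using ATP, and the chaperonins enclose a protein in a chamber: TRiC (Cct genes) in the cytosol, Hspd1 with Hspe1 in mitochondria. When unfolded protein accumulates, heat shock factor 1 induces a subset of these genes by binding inverted repeats of the unit nGAAn, the heat shock element. The comparison here asks whether the chaperone genes changed in hippocampus in which ribosome production had been interrupted in a class of neurons.

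Heat shock factor 1 acts through the heat shock element, and the promoters are therefore shown before the values. In RefSeq (GRCm38.p6), a window from 250 bases before to 50 bases after the transcription start was given for 63 of the 76 genes. An element of 3 units was sought on both strands, as GAA, 2 free bases, TTC, 2 free bases and GAA, or as TTC, 2 free bases, GAA, 2 free bases and TTC. It was found in 4 of these 63 genes (6.35%) and in 179 of 27025 genes of the genome (0.662%). The 4 genes were Dnajb6, Hspd1, Hspe1 and Hsph1. The shorter form of 2 units (GAA and TTC in either order with 2 free bases between them), which is contained in the longer one, occurred in 19 members (30.2%) and in 17% of all genes. Such matches describe letters in a window and not bound sites, and do not settle which members the stress response can reach. Capitals mark the matched units and their spacers in the following 30-base stretches. In Hspe1 both forms match and overlap, so that 4 units stand in a row. The Hspe1 stretch also lies in 1 of the 2 windows given for Hspd1, the neighbouring gene that is read in the other direction. The stretches lie at chr1:55088053-55088082 (plus strand, positions -95 to -66 from the Hspe1 start), chr5:29735844-29735873 (plus strand, -54 to -25 from the Dnajb6 start) and chr5:149636287-149636316 (minus strand, 20 to 49 bases after the Hsph1 start).
Hspe1: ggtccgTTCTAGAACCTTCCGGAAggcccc
Dnajb6: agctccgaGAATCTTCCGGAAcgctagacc
Hsph1: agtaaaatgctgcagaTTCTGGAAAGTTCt

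Hspa1a and Hspa1b encode the strongly inducible HSP70 and are near-identical neighbours on chromosome 17. Their promoter windows differed at 4 of 300 positions, and the stretches from position -220 to -81 before each start are shown because 2 of those differences lie in them (first capitals) together with the same 2-unit element (last capitals). The Hspa1a stretch is chr17:34972237-34972376 and the Hspa1b stretch chr17:34959319-34959458, both on the minus strand.
Hspa1a: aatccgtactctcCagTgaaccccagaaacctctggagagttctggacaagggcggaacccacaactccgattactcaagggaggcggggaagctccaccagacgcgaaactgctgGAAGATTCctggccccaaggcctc
Hspa1b: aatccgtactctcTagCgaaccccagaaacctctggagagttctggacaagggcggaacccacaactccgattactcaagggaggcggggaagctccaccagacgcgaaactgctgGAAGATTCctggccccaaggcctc

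Values are background-corrected, quantile-normalized log2 intensities, in which a step of 1 is a doubling, and differences are mutant minus control with limma's standard error. Rrn3, the gene of TIF-IA, had a mean of 7.84 ± 0.10 in mutants and 8.38 ± 0.11 in controls (SD), a difference of -0.55 (SE 0.07). Every mutant lay below every control, and limma's unadjusted p was 6.73e-06 with an adjusted p of 0.152. Where its probe lies relative to the deleted exon was not examined. The 12 arrays detected between 19193 and 21889 probes at a detection p under 0.01. Markers of tissue next to the hippocampus varied between animals of both groups: the thalamic list (4 of 6 genes detected) stood on average between -0.73 and 1.00 in mutants and between -0.71 and 1.43 in controls, relative to each gene's mean, with mutant 2, mutant 4 and control 4 highest. The oligodendrocyte list (5 detected) ranged between -0.46 and 1.13 in mutants and between -0.76 and 0.58 in controls, and the choroid plexus list (5 detected) between -2.18 and 2.33 in mutants and between -2.08 and 2.11 in controls. Of 6 hippocampal neuron markers 5 were detected, and the median difference over all 6 was -0.46 (1 above and 5 below 0), with 0 at an unadjusted p under 0.05. Median differences were 0.26 for the oligodendrocyte and 0.79 for the choroid plexus list, with all 5 genes of each above 0, -0.10 for the thalamic list and -0.09, -0.07 and 0.09 for the astrocyte, microglia and endothelial lists, each with 0 genes at an unadjusted p under 0.05. The female-specific transcript Xist was low in mutant 3 (4.25) and in control 4 (4.76) and between 9.38 and 10.64 in the other animals.

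No chaperone gene differed between the genotypes beyond the study's threshold. The number of member probes at limma's unadjusted p under 0.001 was 0 of 146, beside 0.0842% of all probes, and the number at an adjusted p under 0.05 was also 0, beside 0.00222%. At an unadjusted p under 0.05, 1 member probe was higher in mutants (0.685%, against 1.94% of all probes) and 5 were lower (3.42%, against 2.01%). Many probes were dim: 93 of the 146 were detected in at least 5 animals and 35 in no animal (0). Of the 93, 5 had an unadjusted p under 0.05 (5.38%), against 5.28% of all probes detected as widely. The chaperone probes thus stood at the rate of the array as a whole.

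Represented by the brightest probe, 62 of the 76 genes were detected in at least 5 animals. Their median difference was 0.00 on the log2 scale, with 31 above and 31 below 0, and the median over all 11463 detected genes of the array was 0.01. They spread between animals much as other genes did, with a median SD over the 11 animals of 0.25, against 0.27 for all detected genes. For 38 of the 62 the 95% interval of the difference lay wholly within 0.5 of 0, so that a change of that size was outside the interval. An absolute difference of at least 0.2 was measured in 13 genes and of at least 0.3 in 1 gene, Dnajc17.

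**Figure D1:**
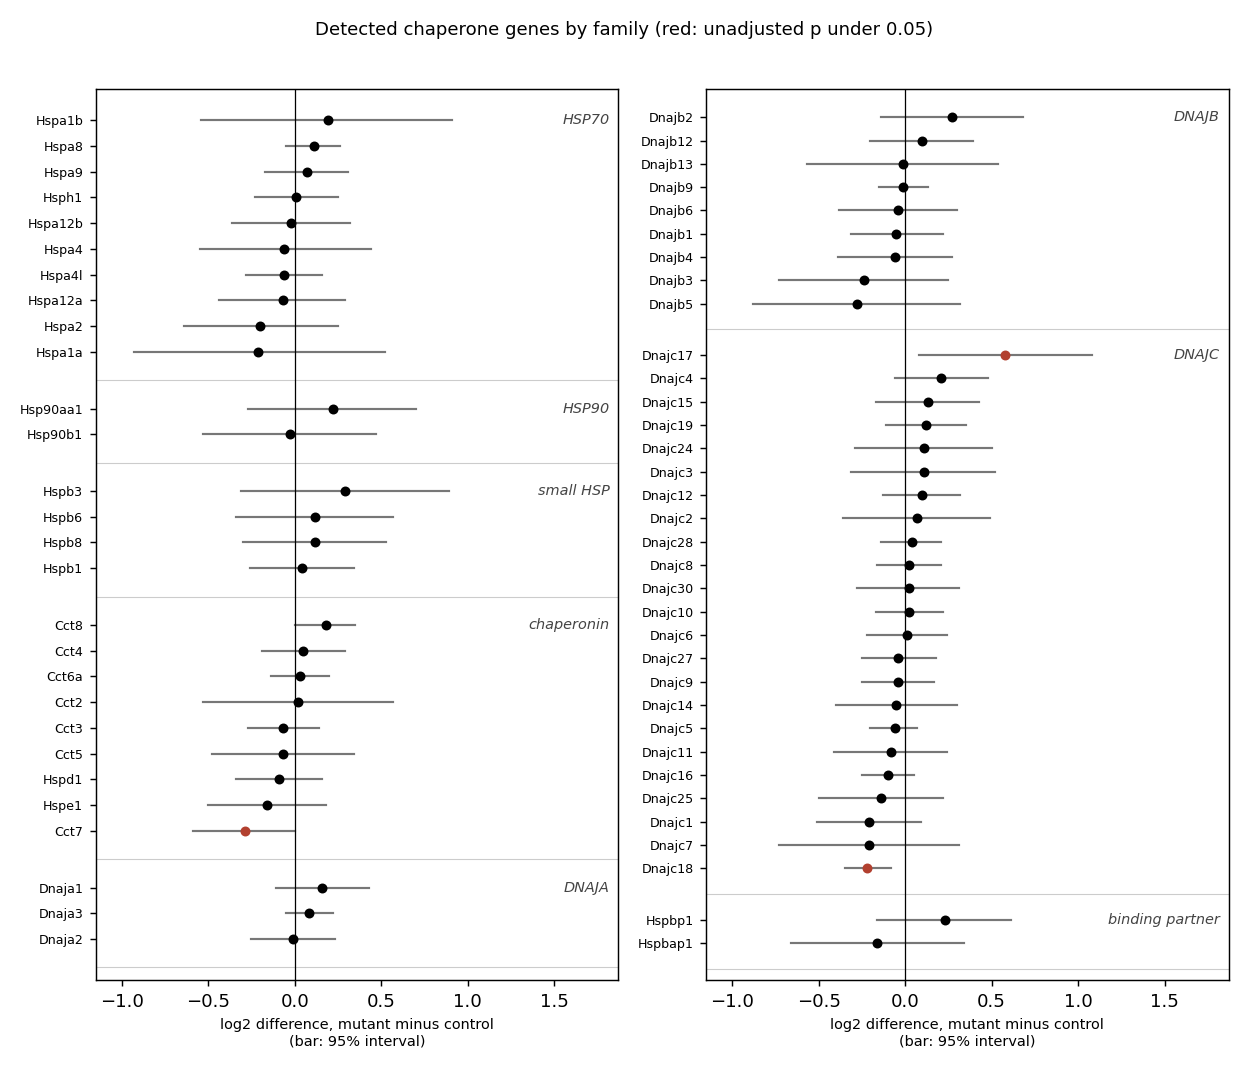
Log2 difference (mutant minus control, horizontal axis) of the 62 detected chaperone genes, grouped by family. Each point is the estimate of 1 gene from its brightest probe and each bar its 95% interval from limma; red points have an unadjusted p under 0.05. All but 3 intervals include 0, and the estimates lie between -0.29 (Cct7) and 0.58 (Dnajc17).

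The 14 genes that were not detected this widely were Hspa13, Hspa14, Hspa1l, Hspb2, Hspb7, Hspb9, Hspb11, Cct6b, Cct8l1, Dnajb7, Dnajb8, Dnajb14, Dnajc5b and Dnajc5g. Hspa14, the HSP70 that sits on the ribosome, was detected in 0 of the 11 animals. Its ribosomal partner Dnajc2, which meets chains as they leave the ribosome, was detected in all of them. The brighter Dnajc2 probe read 9.23, 8.83, 8.84, 8.93, 8.46 and 8.72 in mutants 1 to 6 and 8.94, 9.10, 8.80, 8.98 and 8.02 in controls 1 to 5. The groups overlapped, with control 5 lowest and mutant 1 highest, and the difference was 0.07 (SE 0.19, 95% interval -0.36 to 0.49). The other Dnajc2 probe gave a difference of -0.00 (SE 0.15). Hspa13, an HSP70 of the endoplasmic reticulum, was detected in 3 of 6 mutants and 0 of 5 controls, and is given no difference, since no control was well above background.

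Among the 10 detected HSP70 genes the median difference was -0.04, with 4 above and 6 below 0 and a range of -0.21 to 0.19. Hspa8, the constitutive HSP70 that also uncoats clathrin vesicles at synapses, varied little: 13.79, 13.54, 13.55, 13.67, 13.65 and 13.73 in mutants and 13.68, 13.61, 13.43, 13.60 and 13.42 in controls. The groups overlapped, and the difference of 0.11 (SE 0.07) had an interval of -0.05 to 0.26. The other Hspa8 probes gave 0.14 (SE 0.11) and -0.06 (SE 0.10). Hsph1, an HSP70-like exchange factor that frees ADP from HSP70, had means of 12.29 ± 0.21 in mutants and 12.27 ± 0.16 in controls (SD), and its interval ran from -0.23 to 0.25. Hspa9, the HSP70 of the mitochondrial matrix that pulls imported proteins through the membrane, had means of 12.22 ± 0.11 and 12.15 ± 0.25 in mutants and controls, with a difference of 0.07 (SE 0.11). A dimmer Hspa9 probe gave -0.06 (SE 0.16).

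The inducible pair Hspa1a and Hspa1b had, with Dnajc17, the widest spread between animals of all detected members. Hspa1a read 7.19, 6.32, 6.69, 5.86, 7.08 and 6.25 in mutants and 7.10, 7.60, 5.95, 6.16 and 7.07 in controls, a range of 1.73. High and low animals occurred in both groups, with control 2 highest and mutant 4 lowest. Hspa1b read 5.72, 4.82, 5.38, 4.48, 5.45 and 5.13 in mutants and 5.14, 4.38, 5.13, 4.18 and 6.06 in controls, and it was detected in 5 of 6 mutants and 3 of 5 controls. Here control 5 was highest, and control 2, the highest animal for Hspa1a, was next to lowest. The difference was -0.21 (SE 0.33, 95% interval -0.93 to 0.52) for Hspa1a and 0.19 (SE 0.33, interval -0.54 to 0.91) for Hspa1b. Both intervals include changes of 0.5 in either direction. The 2 genes encode near-identical proteins, and cross-hybridisation between their probes was not tested.

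The 10 heat-inducible members together (Hspa1a, Hspa1b, Hspa8, Hsph1, Dnajb1, Dnaja1, Hsp90aa1, Hspb1, Hspd1 and Hspe1) had a median difference of 0.03, with 6 above and 4 below 0 and 0 at an unadjusted p under 0.05. Dnajb1, the J protein most closely tied to the heat shock response, read 11.26, 11.52, 11.48, 11.30, 11.47 and 11.62 in mutants and 11.49, 11.95, 11.26, 11.35 and 11.38 in controls. Control 2 was the highest animal for Dnajb1 as for Hspa1a, and the genotypes overlapped (difference -0.05, SE 0.12). The 4 genes with a 3-unit element differed by -0.04 (Dnajb6, SE 0.16), -0.09 (Hspd1, SE 0.12), -0.16 (Hspe1, SE 0.15) and 0.01 (Hsph1, SE 0.11), and each interval included 0.

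**Figure D2:**
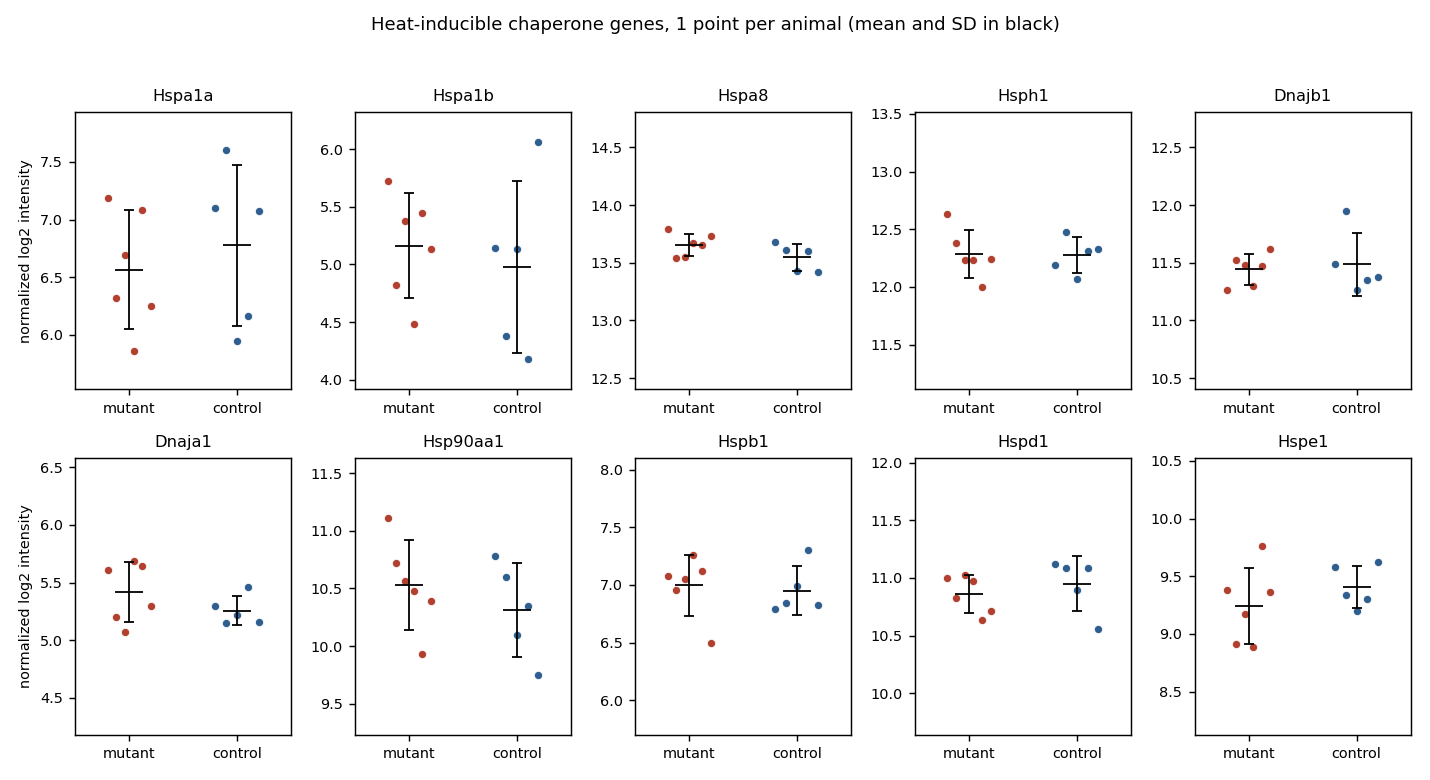
Normalized log2 intensity (vertical axis) of the 10 heat-inducible members in each animal, mutants in red and controls in blue, with the mean and SD in black; each panel spans the same 2.4 log2 units. The groups overlap in every panel, and the points of Hspa1a and Hspa1b are the most scattered, between 5.86 and 7.60 and between 4.18 and 6.06.

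HSP90 was represented by 2 genes, without Hsp90ab1, and their median difference was 0.09. That median was 0.43 within the 300s, which hold 1 control, and -0.05 without control 5. Hsp90aa1, the inducible cytosolic form, read 11.11, 10.72, 10.56, 10.48, 9.93 and 10.39 in mutants and 10.78, 10.60, 10.10, 10.35 and 9.75 in controls. Mutant 1 was highest and control 5 lowest, and the difference was 0.22 (SE 0.22, 95% interval -0.27 to 0.70). A dimmer Hsp90aa1 probe gave 0.05 (SE 0.19). Hsp90b1, the form of the endoplasmic reticulum, read 11.83, 11.55, 11.85, 11.69, 10.84 and 11.29 in mutants and 11.53, 12.08, 11.38, 11.78 and 10.93 in controls. Its 2 lowest values were again in mutant 5 and control 5, and the difference was -0.03 (SE 0.23).

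All 4 detected small heat shock genes had a difference above 0, with a median of 0.12, but none had an unadjusted p under 0.05 and each interval included 0. Leaving out 1 animal gave medians between 0.04 (without mutant 4) and 0.22 (without mutant 3), and the median was -0.04 within the 300s. Hspb8, which works with the co-chaperone Bag3 to route aggregates to autophagy, had means of 10.29 ± 0.37 in mutants and 10.18 ± 0.30 in controls (SD, difference 0.12, SE 0.19), while its second probe gave -0.06 (SE 0.21). Hspb6 had the lowest value in mutant 3 (8.61) and the highest in mutant 4 (9.90) and control 4 (9.43). Its means were 9.19 ± 0.44 and 9.07 ± 0.27 in mutants and controls (difference 0.12, SE 0.21). Mutant 4 and control 4 were also among the 3 animals highest in thalamic and in oligodendrocyte markers (mutant 2 is the other one). Without those 3 animals the Hspb6 difference was -0.01. That step removes the highest Hspb6 values, and a link between Hspb6 and tissue content was not tested. Hspb1 differed by 0.04 (SE 0.14), with mutant 6 lowest and control 4 highest at 7.30. Hspb3 read 5.49, 5.33, 5.38, 5.23, 5.41 and 6.27 in mutants and 4.64, 5.93, 4.92, 4.82 and 5.84 in controls. Controls lay on either side of most mutants, and the difference was 0.29 (SE 0.27, interval -0.31 to 0.89).

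TRiC is the cytosolic chaperonin, a double ring that folds actin and tubulin, and 7 of the 9 genes of this group were detected, with a median difference of 0.02 (4 above 0 and 3 below). Cct7 read 6.25, 5.63, 6.17, 5.96, 6.29 and 6.09 in mutants and 6.41, 6.32, 6.62, 6.02 and 6.42 in controls. All mutants lay below 4 of the 5 controls and overlapped with control 4. The Cct7 difference was -0.29 (SE 0.13, 0.815-fold), with an unadjusted p of 0.0479 by limma, an adjusted p of 0.996 and an exact permutation p of 0.0563. Leaving out 1 animal at a time, the unadjusted p stayed under 0.05 in 3 of 11 cases, with differences between -0.38 and -0.21. Fitted on only the probes detected in at least 5 animals, Cct7 had an unadjusted p of 0.0662 by limma. Cct8 went the other way: 10.78, 10.83, 10.68, 10.87, 10.65 and 10.82 in mutants and 10.78, 10.62, 10.37, 10.72 and 10.49 in controls. Mutants occupied the upper part of the shared range, and the difference was 0.18 (SE 0.08, interval -0.00 to 0.35, unadjusted p = 0.051 by limma, exact permutation p = 0.0563).

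Cct3 depended on the probe. Its dimmer probe ILMN_1247317 read 8.17, 8.25, 8.31, 8.38, 8.62 and 8.37 in mutants and 8.58, 8.53, 8.65, 8.47 and 8.47 in controls. Of the mutants, 5 lay below every control and mutant 5 lay among them (difference -0.19, SE 0.08, unadjusted p = 0.0371 by limma, exact permutation p = 0.0433). Leaving out single animals kept that p under 0.05 in 4 of 11 cases, and within the 300s the difference was -0.01. Fitted on only the probes detected in at least 5 animals, the dimmer probe had an unadjusted p of 0.111 by limma. The brightest Cct3 probe gave -0.07 (SE 0.09, interval -0.27 to 0.14), and the dimmest probe also gave -0.07 (SE 0.16). Cct4 and Cct6a, with differences of 0.05 (SE 0.11) and 0.03 (SE 0.08), both had their highest value in control 2 and their 2 lowest in controls 5 and 4. The mitochondrial chaperonin Hspd1 had means of 10.86 ± 0.16 in mutants and 10.95 ± 0.23 in controls (SD), with mutant 5 (10.64) and control 5 (10.56) lowest, and its lid Hspe1 had means of 9.25 ± 0.33 in mutants and 9.41 ± 0.18 in controls. Both estimates were below 0 (-0.09 and -0.16), with intervals of -0.34 to 0.16 and -0.50 to 0.18. A dimmer Hspd1 probe gave a difference of -0.30 (SE 0.14, unadjusted p = 0.0524 by limma). Over the 8 members of all families assigned to mitochondria the median difference was 0.04, with 5 above and 3 below 0.

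J-domain proteins made up most of the set. The 3 DNAJA genes, general partners of HSP70, had differences of 0.16 (Dnaja1, SE 0.12), -0.01 (Dnaja2, SE 0.11) and 0.08 (Dnaja3, the mitochondrial form, SE 0.06). The Dnaja1 probe read low, with means of 5.42 in mutants and 5.26 in controls. Of the 9 detected DNAJB genes 2 were above and 7 below 0, with a median of -0.04 and 0 at an unadjusted p under 0.05. Dnajb2, a neuronal J protein that sends HSP70 clients to the proteasome, was the highest of them at 0.27 (SE 0.18). Its means were 10.49 ± 0.40 in mutants and 10.22 ± 0.22 in controls (SD), and the groups overlapped. The 2 highest animals, mutant 4 and then mutant 2 at 10.88, were those highest in oligodendrocyte markers (1.13 and 0.61). Without mutant 2, mutant 4 and control 4, the 3 animals highest in thalamic markers, the Dnajb2 difference was 0.07 (unadjusted p = 0.651 by limma). That step removes the 2 highest Dnajb2 values, while control 4 read 10.33, below control 3 at 10.55. A link between Dnajb2 and tissue content was not tested. Dnajb5 lay lowest at -0.28 (SE 0.27, interval -0.88 to 0.32), with 5.65 and 5.69 in mutants 4 and 2 and 7.38 in control 2. A dimmer Dnajb5 probe gave 0.08 (SE 0.17). Dnajb9, induced by stress in the endoplasmic reticulum, hardly varied, at 9.90 ± 0.06 in mutants and 9.91 ± 0.12 in controls (SD, interval -0.15 to 0.13). One Dnajb4 probe that was detected in 0 animals also had an unadjusted p under 0.05 (0.0477 by limma) and is given no fold, since no animal was well above background. The brightest Dnajb4 probe differed by -0.06 (SE 0.15).

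In the DNAJC family, whose members differ most in function, 23 genes were detected, 13 above and 10 below 0, with a median of 0.02. Among them, Dnajc6 and Dnajc5 serve synaptic vesicles. Dnajc6, auxilin, brings Hspa8 to clathrin coats at the synapse and had means of 13.07 ± 0.16 in mutants and 13.06 ± 0.19 in controls. Dnajc5, the cysteine string protein that keeps release-site proteins folded, had means of 12.31 ± 0.10 in mutants and 12.38 ± 0.07 in controls. Their intervals, -0.22 to 0.24 and -0.20 to 0.07, both included 0. Dnajc19, of the mitochondrial import motor, differed by 0.12 (SE 0.11) at its brightest probe, and by 0.00 (SE 0.16) and -0.13 (SE 0.12) at the other detected probes.

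Dnajc18 was the only member probe at which the genotypes did not overlap, as was the case for 0.332% of all probes. It encodes a J protein of the endoplasmic reticulum membrane. It read 6.61, 6.65, 6.57, 6.64, 6.59 and 6.63 in mutants and 6.79, 7.01, 6.88, 6.67 and 6.81 in controls. The mutants lay within 0.08 of each other, and control 4 stood just above them. The difference was -0.22 (SE 0.06, 95% interval -0.35 to -0.08, 0.86-fold). Limma's unadjusted p was 0.00442 and the exact permutation p 0.00433, the smallest that the 462 splits of 11 animals allow, but the adjusted p over all probes was 0.996. Leaving out any 1 of the 11 animals kept limma's unadjusted p under 0.05, with differences between -0.26 and -0.17. Fitted on only the probes detected in at least 5 animals, the same difference had an unadjusted p of 0.0478 by limma. The difference was -0.23 among animals numbered in the 200s and -0.19 among those in the 300s, where the unadjusted p was 0.121 by limma.

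Dnajc17, a J protein of the nucleus with an RNA recognition motif, was the only member with a higher value at an unadjusted p under 0.05. It read 6.48, 6.57, 6.51, 6.54, 7.24 and 6.35 in mutants and 6.51, 6.28, 5.20, 5.96 and 6.23 in controls. Mutant 5 stood above all other animals and control 3 below them. Every mutant lay above every control except control 1, whose value of 6.51 fell among the mutants. The difference was 0.58 (SE 0.23, interval 0.08 to 1.08, 1.5-fold), with an unadjusted p of 0.0268 by limma, an adjusted p of 0.996 and an exact permutation p of 0.0130. With the number series as a block, which is unevenly spread over the genotypes, it was 0.52 (unadjusted p = 0.0578 by limma). It no longer had an unadjusted p under 0.05 when mutant 5, control 3 or control 4 was left out, and without control 3 it came to 0.37. Without the 3 animals highest in thalamic markers the difference was 0.59 (unadjusted p = 0.0921 by limma).

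Dnajc27, a small GTPase fused to a J domain, was lower only at its dimmer probe. That probe read 5.84, 5.93, 6.02, 5.72, 5.67 and 5.80 in mutants and 6.45, 6.15, 6.31, 6.10 and 5.79 in controls. All mutants lay below 4 of the controls, with control 5 among the mutants (difference -0.33, SE 0.11, 0.795-fold, unadjusted p = 0.0134 by limma, exact permutation p = 0.0303, adjusted p = 0.996). The unadjusted p stayed under 0.05 whichever of the 11 animals was left out, while within the 300s the difference was -0.06 (unadjusted p = 0.608 by limma). The brighter Dnajc27 probe read 9.28 ± 0.20 in mutants and 9.31 ± 0.11 in controls, with a difference of -0.04 (interval -0.25 to 0.18). Dnajc8, a J protein found with splicing factors, showed the same kind of split, with 0.38 (SE 0.19) at a dimmer probe and 0.02 (SE 0.08) at its brightest. The sizes of these differences depended on the scale: in the deposited log2 values they were 0.28 for Dnajc17, -0.13 for Dnajc18, -0.15 for the dimmer Dnajc27 probe and -0.14 for Cct7, with the same values when the background was left in. Of the 26 member genes with more than 1 detected probe, 9 had probes that differed in sign.

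**Figure D3:**
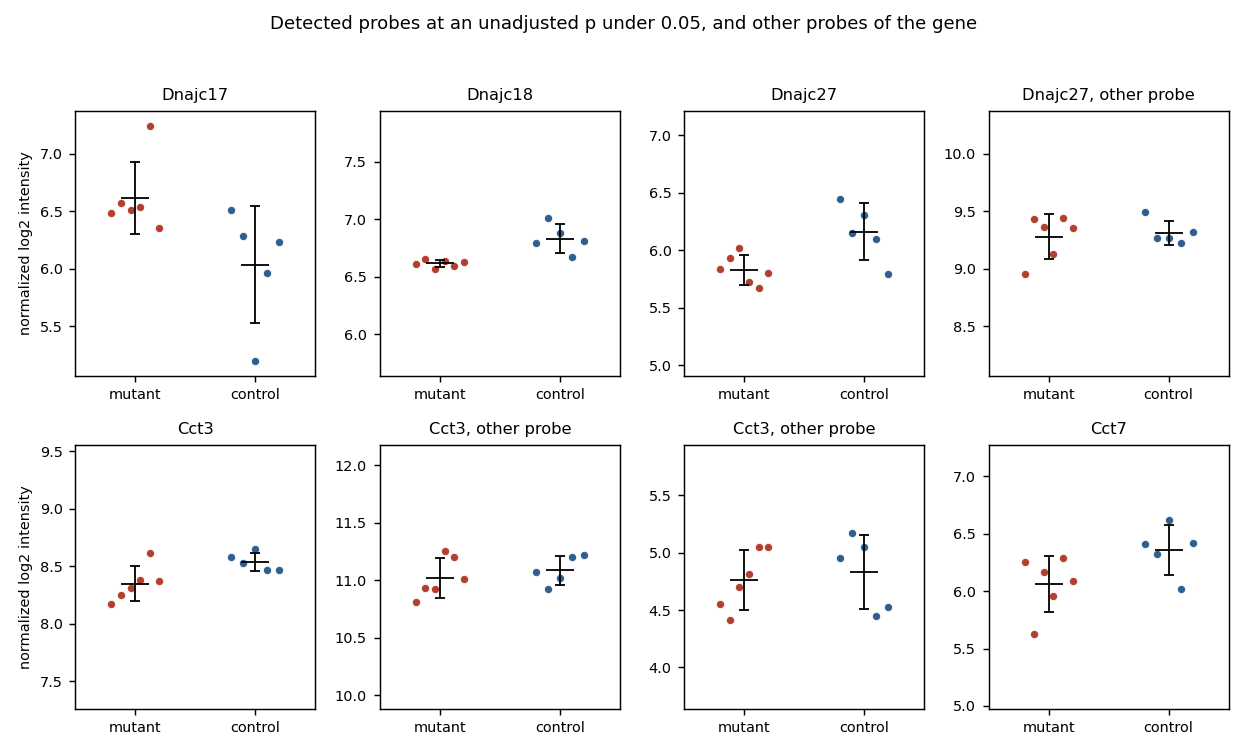
Normalized log2 intensity (vertical axis) in each animal for the 5 detected member probes at an unadjusted p under 0.05 (Dnajc17, Dnajc18, Dnajc27, Cct3 and Cct7) and for the other detected probes of the same genes, mutants in red and controls in blue, with mean and SD in black. Only for Dnajc18 do the groups not overlap (6.57 to 6.65 in mutants, 6.67 to 7.01 in controls); the other probes of Dnajc27 and Cct3 show means within 0.07 of each other.

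Both partners carrying the Hspb letters were detected. Hspbp1, which makes HSP70 release its nucleotide and restrains refolding, differed by 0.23 (SE 0.18), with mutant 5 highest at 8.06 and control 4 lowest at 6.89. Hspbap1, which binds small heat shock proteins, differed by -0.16 (SE 0.23).

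Some low and high values recurred in the same animals across genes. In 7 genes (Hsp90aa1, Hsp90b1, Hspa9, Hspd1, Dnajc2, Dnajc3 and Dnajc7) the 2 lowest animals of all 11 were mutant 5 and control 5. Dnajc7, a J protein that binds both HSP70 and HSP90, read 9.02 in mutant 5 and 9.28 in control 5 and at least 9.68 elsewhere. This was 11.3% of the detected members, and the same 2 animals were lowest for 8.24% of all detected genes, so that nothing particular to the chaperones is read from it. Control 2 was highest for Hspa1a, Dnajb1, Dnajb4, Dnajb5, Cct4, Cct6a and Hsp90b1 among others, 10 genes in all, and control 1 for 11. The share of all detected genes highest in these animals was not computed, so these counts are not read as particular to the chaperones. Hspa2, an HSP70 abundant in testis and also found in brain, was lowest in mutant 4 (10.97) and control 4 (11.32) and highest in mutant 3 (12.15), and its second probe was likewise lowest in mutant 4 (7.90). The Hspa2 difference was -0.20 (SE 0.20).

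**Figure D4:**
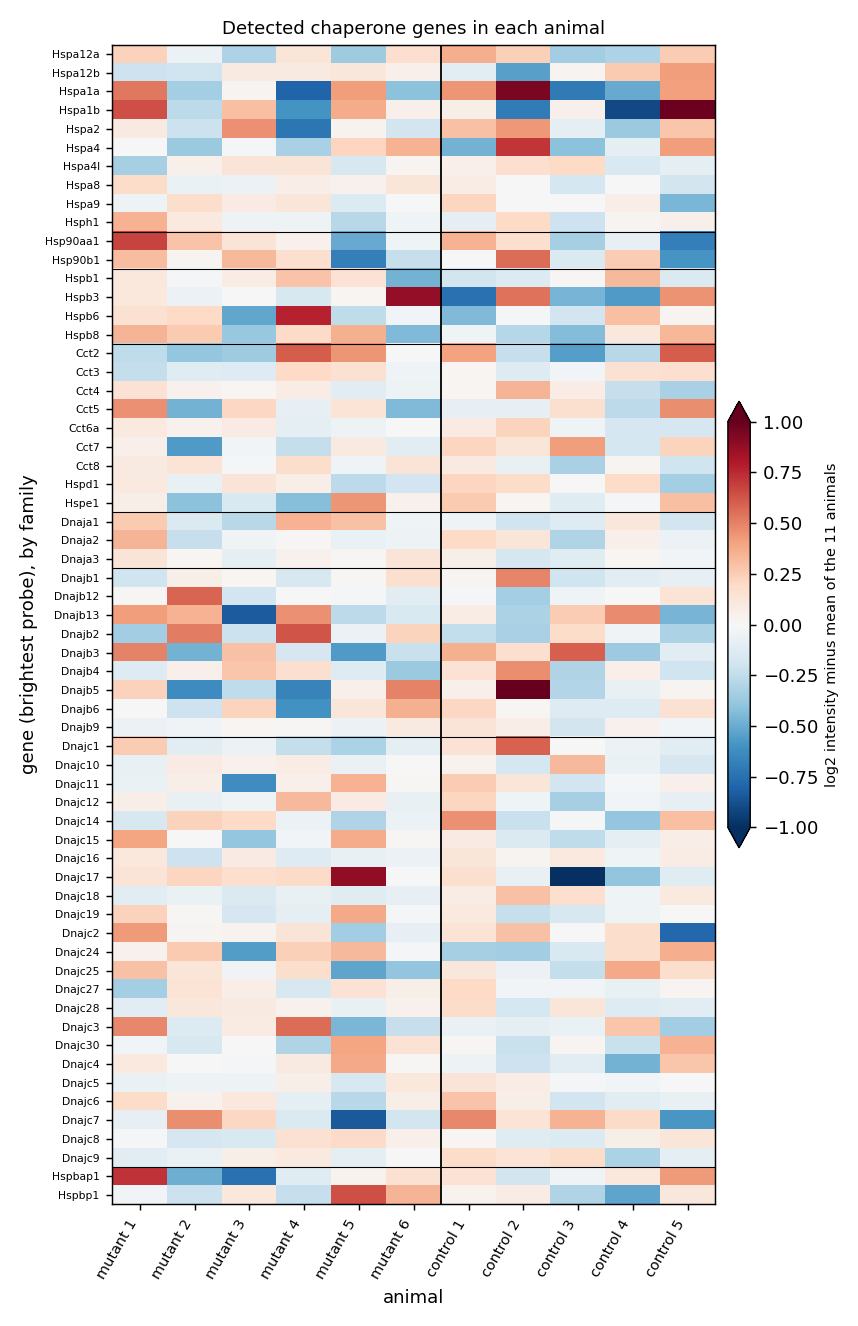
Log2 intensity of the 62 detected chaperone genes (rows, by family) in each of the 11 animals (columns, mutants left of controls), as the deviation from the gene's mean over the animals; red is above it and blue below, and deviations beyond 1 share the end colours. No block of rows separates mutants from controls, while mutant 5 and control 5 share low values for Hsp90aa1, Hsp90b1, Dnajc2, Dnajc3 and Dnajc7.

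Outside the rule, 60 other genes of protein folding were named on the array and 58 were detected: heat shock factors, co-chaperones of HSP70 and HSP90, prefoldin and tubulin folding factors, and mitochondrial chaperones and proteases. Their median difference was 0.03, with 42 above and 16 below 0, against 6105 above and 5358 below among all detected genes. By list, the median was 0.10 for 4 genes of the heat shock factor group (Hsf2, Hsf4, Hsf5 and Hsbp1). It was 0.04 for the 14 genes of the HSP70 co-chaperone list, which also holds Hspa5, itself an HSP70. For 16 HSP90 co-chaperones it was 0.04, for 12 chaperonin partners 0.03 and for 10 mitochondrial genes 0.02. The median was 0.27 for the remaining Cryab and Serpinh1. At an unadjusted p under 0.05 stood 2 of the 58 (3.45%), against 5.3% of all detected genes. Both had a higher mean in mutants. Fkbp4, which links HSP90 to steroid receptors, read 11.55, 11.61, 11.62, 11.82, 11.53 and 11.48 in mutants and 11.49, 11.31, 11.52, 11.46 and 11.31 in controls. All mutants but mutant 6 exceeded every control (difference 0.18, SE 0.07, unadjusted p = 0.0252 by limma, exact permutation p = 0.0130, adjusted p = 0.996). Nudc, a dynein regulator with an HSP90-binding fold, averaged 12.92 ± 0.13 in mutants and 12.71 ± 0.12 in controls (difference 0.21, SE 0.08, unadjusted p = 0.0254 by limma, exact permutation p = 0.0346, adjusted p = 0.996). The chaperonin subunit Tcp1 differed by 0.02 (SE 0.08), Hspa5, the HSP70 of the endoplasmic reticulum, by -0.11 (SE 0.09), and the mitochondrial HSP90 Trap1 by 0.12 (SE 0.14). The Hspa5 probe read low, between 5.16 and 5.66. Cryab, a small heat shock protein abundant in oligodendrocytes that the rule does not name, was highest in mutant 4 (10.61), mutant 2 (9.97) and control 4 (9.88), the 3 animals highest in thalamic markers.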

How the data were processed

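Hippocampal RNA of 6 mutants and 5 controls was profiled on Illumina MouseWG-6 v2 bead arrays. The authors deposited a table with, per array (12) and probe, a raw intensity and a detection p-value, and a table of processed log2 values. Their methods name BeadArray for quality control, then subtraction of background, quantile normalization, a log2 transform and limma, which is also in the submitters' processing notes; no version is given there. Whether and how background was subtracted in the deposited log2 values (array medians 6.60 to 6.64) was not established. The raw median intensities were 83.1 to 108. The deposited values served as an alternative. For Dnajc17, Dnajc18, the dimmer Dnajc27 probe and Cct7 they gave the same differences as leaving the background in. These settings are therefore not read as separate support.

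The 45135 named probes (954 nameless lines were taken as control beads) went through neqc of limma 3.58.1 in R 4.3.3: normexp with the detection p-values, offset 16, quantile normalization and log2. After averaging both arrays of mutant 6, lmFit and eBayes (prior degrees of freedom 2.12) gave mutant minus control, and p-values were adjusted by Benjamini-Hochberg across the 45135 probes. The fitting code was tested on simulated data. The 34773 probes with 1 symbol in the platform annotation were named. A probe counts as detected in an animal at a detection p under 0.01. Exact two-sided permutation tests over 462 splits were added for single probes, with no adjustment over the members. The number of arrays limits the precision.

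Named were probes at an unadjusted p under 0.05, the 3 brightest genes of each family, the 3 largest rises and falls and the 3 largest spreads among detected members, the heat-inducible members, Hspa14 and Dnajc2, and genes whose detected probes differ in sign. Genes named for which animals were extreme (Hspa2, Dnajc7, Cct8 and others), for position outside the rule or for depth were chosen after their values were seen. Members and lists were chosen with earlier results of these data known. Roles and cell compartments are textbook knowledge. The alternatives tried were the deposited values, cyclic loess, leaving the background in, a filter on dim probes, single arrays of mutant 6, the replicate number or number series as a block, each number series alone, array weights, leaving out each animal, and all probes of a family. Leaving out mutant 2, mutant 4 and control 4 together was added after seeing the data. No protein sequences were used here.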

Additional observations from a re-analysis of the deposited data

Results flagged for a closer look

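In 7 of 94 groups tested, 1 animal stood far from the others of its group. Chance alone flags about 1 in 20 groups where probes are not picked by their values. Some of these probes were named for their spread or difference, so no excess is read from the count. Dnajc17 read 7.24 in mutant 5 and between 6.35 and 6.57 in the other mutants. Hspb3 read 6.27 in mutant 6 and between 5.23 and 5.49 in the other mutants. Dnajb5 stood high in control 2 at 2 probes, at 7.38 beside 6.02 to 6.37 in the other controls and at 5.17 beside 4.53 to 4.62, and in mutant 1 at the dimmer of them, at 5.40 beside 4.47 to 4.79. In control 5, Dnajc2 read 8.02, beside 8.80 to 9.10 in the other controls, and a dimmer Hspa9 probe 9.18, beside 9.78 to 9.97.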

How the results depend on the processing

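Under every alternative run, 0 member probes reached an adjusted p under 0.05 and 0 an unadjusted p under 0.001 by limma. The count at an unadjusted p under 0.05 is small and moved. Higher probes, 1 in the fit reported, were 2 with the number series as a block, 3 in the deposited log2 values, 4 without background correction, 6 within the 300s and 0 to 3 when 1 animal was left out (0 without control 3, 2 without control 1 or 2, 3 without control 5 or mutant 3). Lower probes, 5 in that fit, were 2 with the filter on dim probes, 3 with the first array of mutant 6 alone, 3 within the 200s and 2 to 6 when 1 animal was left out (2 without control 1 or mutant 3, 3 without control 2 or 3 or mutant 2, 4 or 6). Without mutant 2, mutant 4 and control 4 they were 1 and 4.

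Within the 300s, 3 mutants face 1 control that is assumed to vary like them. There the median difference was -0.30 for HSP70, 0.43 for HSP90 and 0.04 for DNAJB genes. In the fit reported these medians were -0.04, 0.09 and -0.04. A Dnajc19 probe turned to 0.33 and a Dnajc2 probe to 0.56 within the 300s, and the cause was not tested. The HSP90 median was 0.27 with the number series as a block and -0.05 without control 5. Deviations of same-numbered mutants and controls had correlations of 0.26, -0.05, -0.05, 0.56 and 0.54 for numbers 1 to 5. Differently numbered animals were not compared, so whether the numbers of the labels pair the animals is not settled. With the replicate block 6 probes were higher and 4 lower. Among the 49 named probes, a change of sign with an unadjusted p under 0.05 on either side occurred in 0 of 539 values with 1 animal left out and in 2 of 586 others, and such a p was lost in 26 and 23. Signs of values near 0 did change, as for Dnajb1.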
